A study of Rattus norvegicus with 12 samples.

Results

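Cohort 1 of the study comprised 6 of the 12 C6 glioma tumors that were profiled, 3 from mice treated with (R,R')-4-methoxy-1-naphthylfenoterol (MNF), a fenoterol derivative, and 3 from mice given vehicle. The tumors were taken as members because their sample titles name cohort #1, and no measured value was used to choose them. C6 is a rat glioma cell line. Cells of this line were placed under the skin of the left flank of athymic female nude mice (SWISS nu+/nu+). From day 3 after inoculation the MNF group received 2 mg/kg by intraperitoneal injection on 5 days a week for 19 days, in 100 µM ascorbic acid in saline, and the vehicle group received that solution alone. RNA of each tumor was hybridized to 1 Illumina RatRef-12 array. The probes were designed for rat, while vessels, stroma and any muscle or skin in a sample come from the mouse, so the model holds 1 rat tumor line in a host of another species. The labels number the replicates and say nothing of pooling or of more than 1 tumor per mouse.

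MNF is a β-adrenergic agonist, of a class of compounds that raise cyclic AMP in the cell through G protein-coupled receptors, and it is also studied for its action on cannabinoid receptors. Cyclic AMP activates protein kinase A, whose target CREB switches on early response genes such as Atf3 and Junb. C6 cells carry features of astrocytes and of oligodendrocyte precursors, and in a growing tumor the genes of mitosis and DNA replication mark the fraction of cells in cycle. The question asked of this cohort is which transcripts differ between tumors of MNF-treated and vehicle-treated mice.

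Of the 22517 probes on the array, 7856 had a detection p-value under 0.02 on all 6 arrays. With the brightest probe for each gene, 7799 features were tested, 5624 with a gene symbol and 2175 with none here. Signals given for single tumors below are normalized signals on a linear scale, each change is the log2 difference MNF minus vehicle with its standard error (SE), and n was 3 tumors per group throughout. The groups were compared with limma, and p-values were adjusted by Benjamini-Hochberg over all 7799 features. They measure only the spread between these 6 tumors. The number of arrays limits the precision: the median SE was 0.144, as large as the median absolute change of 0.140.

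The arrays of the groups differed before any gene was considered. Mean deposited signal was 500.4, 748 and 695 in MNF tumors 1 to 3, against 1062, 873 and 850.1 in vehicle tumors 1 to 3, so that every MNF array was dimmer than every vehicle array (exact permutation test, two-sided, p = 0.1, the smallest that 20 arrangements allow). Detected probes numbered 8733, 9183 and 8932 in MNF tumors and 9302, 8954 and 9374 in vehicle tumors (exact permutation test, two-sided, p = 0.2). Across features MNF tumors 2 and 3 correlated with each other at r = 0.983, and with single vehicle arrays at 0.980 to 0.990. MNF tumor 1 stood apart from the rest. Its signals correlated with those of the other 5 arrays at a mean r of 0.964 across features, against 0.978 to 0.983 for the others. It exceeded all other arrays at least 2-fold for 54 features, a count that was 6 for MNF tumor 2, 1 for MNF tumor 3 and 0 for each vehicle tumor.

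Transcripts of muscle and skin were most abundant on that array, while those of red blood cells were highest in MNF tumor 3. The mean log2 signal of Acta1, Myl1 and Tnnc2, which encode contractile proteins of skeletal muscle, was 11.86, 7.90 and 10.28 in MNF tumors, against 9.39, 8.72 and 8.99 in vehicle tumors (exact permutation test, two-sided, p = 0.5). The hemoglobin genes Hbb and Hba-a1 averaged 14.51, 13.26 and 15.43 on the log2 scale in MNF tumors and 12.59, 13.92 and 12.38 in vehicle tumors (exact permutation test, two-sided, p = 0.2). Of 24 named skeletal muscle markers on the array, 9 were detected in no tumor, and their summed signal was 3969.7 to 23250 in MNF tumors and 4771 to 5690 in vehicle tumors. The 5 keratinocyte markers summed to 20391 in MNF tumor 1, 626 and 1744 in the other MNF tumors and 596 to 2290 in vehicle tumors. Tp63 and Perp of this list were detected on no array, and Krt1, Krt10 and Krt17 on 2 MNF arrays and 1 vehicle array. In whole tumors, fewer cells of a type and less RNA per cell cannot be told apart.

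**Figure D1:**
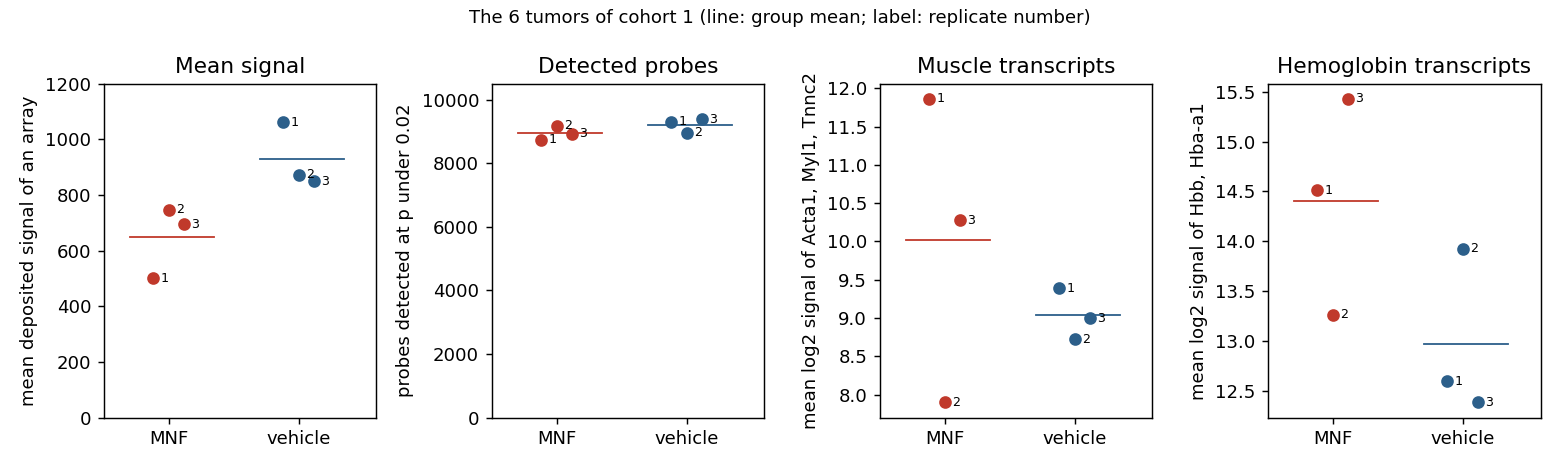
Mean deposited signal, number of detected probes, mean log2 signal of 3 muscle genes and mean log2 signal of 2 hemoglobin genes in each of the 6 tumors, MNF left of vehicle. Points are tumors with their replicate number, and lines are group means. Mean signal was 500.4 to 748 on MNF arrays and 850.1 to 1062 on vehicle arrays, and MNF tumor 1 carried the most muscle transcript.

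Labelled as glioma, the tumors carried part of the transcripts listed as C6 glioma and astrocyte markers. Of 9 such markers named on the array, 6 were detected on all arrays and 2 on none. S100b, a calcium-binding protein of astrocytes, had signals of 2988, 3307 and 4390.4 in MNF tumors and 4359.5, 3869 and 5469.7 in vehicle tumors, and the intermediate filament vimentin (Vim) was at 28777 to 33069 in MNF tumors and 27164 to 32549 in vehicle tumors. Gfap has no named probe here. Of 11 lymphocyte markers 8 were detected on no array, as were 6 of 7 neutrophil markers, and no gene of either list was detected on all 6. Cnr1 and Cnr2, the cannabinoid receptors, and Adrb1, a β-adrenergic receptor, were detected on 0 of the 6 arrays, so no comparison was possible for them.

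A single feature of the 7799 tested (0.0128%) passed an adjusted p under 0.05 in limma. This was a probe without a symbol here, number 18977 of the array, with signals of 3768, 3406 and 3099 in MNF tumors, against 905, 1109 and 1208 in vehicle tumors. All MNF tumors were above all vehicle tumors. The change was 1.68 (SE 0.15), or 3.20-fold, with an adjusted p of 0.0107. It was not called without vehicle tumor 1 (adjusted p = 0.0739) or without vehicle tumor 2 (adjusted p = 0.12), nor in a model of all 12 arrays (adjusted p = 0.203) or with no filter on detection (adjusted p = 0.104). Another unnamed probe, number 5606, had 1503, 1673 and 816 in MNF tumors and 326, 426 and 322 in vehicle tumors, a change of 1.84 (SE 0.26, adjusted p = 0.235). No named gene passed the test, and the smallest adjusted p among them was 0.442. For named genes below whose adjusted p is not printed it was 0.646 or above.

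Without adjustment, 557 features had a p under 0.05, 251 of them higher (3.22%) and 306 lower (3.92%) in MNF tumors. Signals did not overlap between the groups for 629 features that were higher (8.07%) and 614 that were lower (7.87%). Changes of at least 2-fold were seen for 16 features, 14 higher and 2 lower, and for 4 of these the groups did not overlap. An absolute Z ratio of 1.5, the size threshold of the methods, was reached together with an unadjusted p under 0.05, set here in place of the p of the methods, by 413 features (176 higher, 237 lower). Of them 2, both unnamed probes, had an adjusted p under 0.3, and 1 an adjusted p under 0.05. Treatment accounted for 24.6% of the variance over all features, against 20% by chance and a maximum of 34.9% over the 20 arrangements of the tumors (exact permutation test, p = 0.3).

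Changes followed the signal level. With the features in 5 equal bins by signal, the dimmest bin was tilted upward: in it 75 features were above and 2 below at an unadjusted p under 0.05 (median change 0.12), while in the fourth bin 17 were higher and 109 lower (median -0.09). Among the 77 brightest features, 76 had a positive change, with a median of 0.37. Quantile normalization gives all arrays 1 distribution of signals, and its values are given beside several bright genes below. Whether the lower signal of the MNF arrays adds to the changes of dim and bright genes was not tested.

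**Figure D2:**
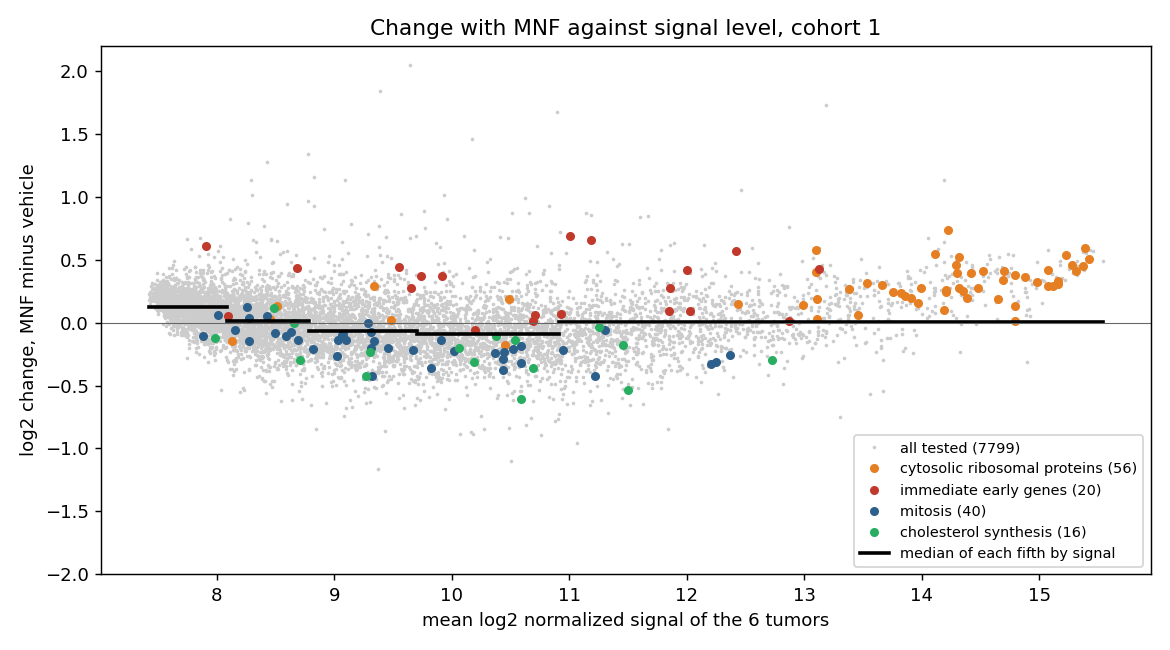
Log2 change with MNF (MNF minus vehicle) of the 7799 features against their mean log2 normalized signal over the 6 tumors. Colored points are 4 gene groups, and black bars are medians of 5 equal bins of features by signal. The bars are highest in the dimmest bin, at 0.12, and lowest in the fourth, at -0.09. Ribosomal protein genes lie at the bright end above 0, and mitosis genes lie mostly below 0 at middle levels.

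Among named genes on the higher side, Cthrc1, a secreted protein of remodeling matrix, had the smallest p. Its signal was 820.4, 539 and 764 in MNF tumors, against 309, 203 and 333 in vehicle tumors, a change of 1.34 (SE 0.22, adjusted p = 0.442). Serpinb2, an inhibitor of plasminogen activators, had 543, 610.1 and 302 in MNF tumors and 263, 223 and 163 in vehicle tumors (1.13, SE 0.27). Groups did not overlap for either gene. Gpx3, a secreted glutathione peroxidase, had 1335, 798 and 1006 in MNF tumors and 745, 433 and 550.2 in vehicle tumors (0.86, SE 0.24). For Prkaa1, a catalytic subunit of AMP-activated kinase, signals were 391, 368 and 380.1 in MNF tumors and 282, 295 and 276 in vehicle tumors (0.42, SE 0.11), a small difference with little spread within either group. Pkm, a pyruvate kinase, had 327, 249 and 304 in MNF tumors and 158, 213 and 182 in vehicle tumors (0.67, SE 0.16). The other genes of the 12 with the smallest p on this side were Atf3, Gadd45g, Pim1, Tnip2, Tmod1, Rplp1 and Gpr15lg, with changes of 0.42 to 0.74, and each of the 12 was higher in all MNF tumors than in any vehicle tumor. Pkm, Atf3, Pim1, Tmod1, Tnip2 and Gpr15lg had low signals, in the dim range where most calls without adjustment were on the higher side.

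On the lower side the smallest p belonged to Dusp3, a phosphatase that acts on the MAP kinases ERK and JNK. It had 313, 322 and 399 in MNF tumors, against 592, 574 and 689 in vehicle tumors, a change of -0.85 (SE 0.14, adjusted p = 0.442). Add3, an adducin of the membrane skeleton, had 684, 835 and 861 in MNF tumors and 1402, 1274 and 1747 in vehicle tumors (-0.89, SE 0.16, adjusted p = 0.536). By mean signal Dusp3 lies in the middle bin (440 to 832), as do Rbbp8 and P2rx4 below. There 33 features were higher and 95 lower without adjustment. Add3 lies in the next brighter bin (832 to 1925), as do Hes6, Olig1, Fez1, Scg2, Abhd8, Pou3f2 and Tmem50b below. In that bin 17 features were higher and 109 lower, so most calls without adjustment were on the lower side. Mtdh, a membrane protein studied as a promoter of tumor growth, had 2339.5, 2208 and 2257 in MNF tumors and 3568, 3293 and 3443 in vehicle tumors (-0.60, SE 0.11, adjusted p = 0.638), so that the groups were far apart against a narrow spread. Rbbp8, which resects DNA ends in repair, had 708, 618 and 650.2 in MNF tumors and 1144, 965 and 1007 in vehicle tumors (-0.66, SE 0.13, adjusted p = 0.638). Hes6, a factor of neural differentiation, had 961, 915 and 909 in MNF tumors and 1371, 1299 and 1308 in vehicle tumors (-0.51, SE 0.11). All 3 MNF tumors were below all 3 vehicle tumors for each of these genes.

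Olig1, a transcription factor of the oligodendrocyte lineage, had 915, 770.4 and 1127 in MNF tumors and 1428, 1889 and 1699 in vehicle tumors (-0.84, SE 0.17, adjusted p = 0.646). Fez1, an adaptor of axonal transport, had 1194, 1578 and 1574 in MNF tumors and 1967, 2799 and 2729 in vehicle tumors (-0.78, SE 0.18). Scg2, a granin of secretory granules, had 1522, 1231 and 1773 in MNF tumors and 2811, 2578 and 2089 in vehicle tumors (-0.73, SE 0.17). None of the 3 overlapped between groups. Pou3f2, a POU factor of neural progenitors, had 658, 941 and 983 in MNF tumors and 1131, 1448 and 2272 in vehicle tumors (-0.87, SE 0.26). P2rx4, an ATP-gated channel, Fads1, a fatty acid desaturase, Abhd8 and Tmem50b completed the 12 smallest p on this side, at -0.61 to -0.47, again without overlap. The changes of Dusp3, Add3, Mtdh, Rbbp8, Hes6, Olig1, Fez1 and Scg2 stayed between -1.13 and -0.41 under all 21 alternatives, of which 6 left out 1 tumor each.

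**Figure D3:**
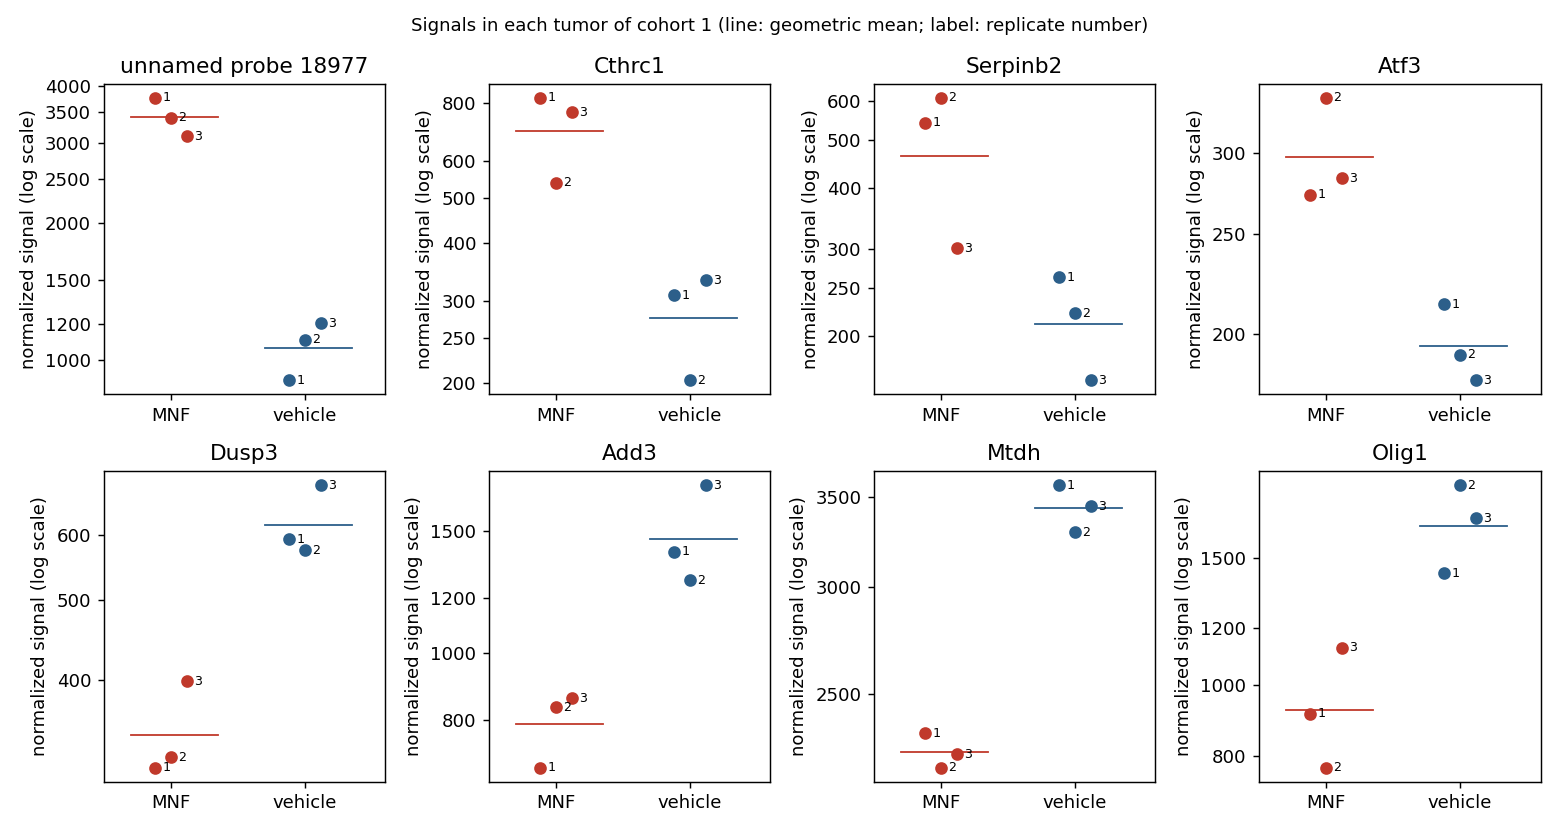
Normalized signal (log scale) of an unnamed probe and 7 named genes in each tumor of cohort 1, MNF left of vehicle. Points are tumors with their replicate number, and lines are geometric means. The unnamed probe 18977, Cthrc1, Serpinb2 and Atf3 were higher in all MNF tumors, and Dusp3, Add3, Mtdh and Olig1 lower. Of these only the unnamed probe passed an adjusted p under 0.05.

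Most mitosis genes had lower signals with MNF, and none passed the adjusted test. Of 46 such genes named on the array 40 were tested, and 36 of the 40 had a negative change, with a median of -0.17, against a median of -0.000367 over all features, of which 3912 of 7799 were negative. With the unadjusted p set at 0.05, 5 of them passed on the lower side and 0 on the higher side (3.92% and 3.22% over all features). Cdkn3, a phosphatase of CDK2, had 2171, 1667 and 2401 in MNF tumors and 2773, 2679.8 and 2821 in vehicle tumors (-0.42, SE 0.15). Ccnb2, cyclin B2, had 4677, 3774 and 4227 in MNF tumors and 5032, 5785 and 5073 in vehicle tumors (-0.33, SE 0.13). Fbxo5, which restrains the anaphase-promoting complex, had 571, 459.6 and 636 in MNF tumors and 795, 783 and 650.2 in vehicle tumors (-0.43, SE 0.16). Ndc80, a kinetochore protein, had 783, 759 and 859 in MNF tumors and 1006, 1106 and 971 in vehicle tumors (-0.36, SE 0.12). Groups did not overlap for these 4 genes, but the gap was narrow for Fbxo5, and they overlapped for Aurkb, the Aurora B kinase (-0.38, SE 0.16). Exceptions, named after their values were seen, were Mki67 (0.05), the common proliferation marker, Foxm1 (0.03), a transcription factor of mitotic genes, Cep55 (0.06) and Incenp (0.13). The mean log2 signal of the 40 genes was 9.63, 9.38 and 9.60 in MNF tumors and 9.61, 9.86 and 9.65 in vehicle tumors. By this mean the groups overlapped, with MNF tumor 2 the lowest and vehicle tumor 2 the highest. Without vehicle tumor 2 the median change was -0.08 and without MNF tumor 2 it was -0.11, while 31 and 27 of the 40 were negative. Since the mitosis genes have middle signals, where the median of all features was also negative, their shift lies in the same direction as that of other genes at that level. Under quantile normalization 35 of 40 were negative, with a median of -0.13.

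Promoters of the 4 mitosis genes with the smallest p are shown because 2 short elements known from the control of mitotic genes recur in them, the CCAAT box (CCAAT) and the cell cycle genes homology region (TTTGAA). The windows run from 250 bases before to 50 after the annotated start and come from RefSeq on build GRCr8: Cdkn3 at chr15:22502136-22502435 on the plus strand, Ccnb2 at chr8:79981609-79981908, Fbxo5 at chr1:44607732-44608031 and Ndc80 at chr9:118887480-118887779, the last 3 on the minus strand. Capitals mark either motif on either strand.
Cdkn3: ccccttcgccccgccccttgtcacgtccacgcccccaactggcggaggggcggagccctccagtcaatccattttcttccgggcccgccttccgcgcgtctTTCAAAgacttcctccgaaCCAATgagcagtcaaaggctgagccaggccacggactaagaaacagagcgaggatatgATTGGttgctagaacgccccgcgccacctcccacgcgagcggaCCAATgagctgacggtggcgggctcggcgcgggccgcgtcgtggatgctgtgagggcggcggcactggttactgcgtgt
Ccnb2: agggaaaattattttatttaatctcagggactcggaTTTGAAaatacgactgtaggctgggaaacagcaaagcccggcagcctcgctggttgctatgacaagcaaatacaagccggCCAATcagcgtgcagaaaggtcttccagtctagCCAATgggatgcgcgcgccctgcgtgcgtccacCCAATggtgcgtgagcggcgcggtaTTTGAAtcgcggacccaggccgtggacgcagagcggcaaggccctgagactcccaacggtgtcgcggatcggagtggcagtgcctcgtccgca
Fbxo5: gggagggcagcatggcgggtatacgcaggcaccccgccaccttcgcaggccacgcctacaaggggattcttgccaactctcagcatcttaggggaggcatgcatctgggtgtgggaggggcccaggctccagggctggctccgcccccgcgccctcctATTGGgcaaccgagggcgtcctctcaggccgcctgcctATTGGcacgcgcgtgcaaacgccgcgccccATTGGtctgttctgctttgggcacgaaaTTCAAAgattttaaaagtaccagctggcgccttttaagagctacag
Ndc80: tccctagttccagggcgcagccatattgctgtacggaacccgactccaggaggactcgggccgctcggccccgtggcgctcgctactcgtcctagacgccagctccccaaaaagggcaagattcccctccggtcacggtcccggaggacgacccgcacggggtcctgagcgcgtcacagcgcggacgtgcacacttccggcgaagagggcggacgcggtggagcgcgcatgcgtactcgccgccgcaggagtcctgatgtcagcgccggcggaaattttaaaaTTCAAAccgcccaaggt
Of the 40 tested mitosis genes, 32 had such a window, and TTTGAA stood in 25 of the 32 (78.1%), against 11.3% of the windows of 4785 tested genes and 18.3% of all 33469 windows. CCAAT stood in 24 of the 32 (75%), against 39.1% and 37.5%. The letters of the motifs do not overlap in these 4 windows. Ndc80 holds TTTGAA and no CCAAT. A match of letters describes the window and is not a measured binding site.

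Other genes of the cell cycle gave smaller counts. Bub1b, which acts in the spindle checkpoint, had 594, 379.8 and 471 in MNF tumors and 549, 588 and 572 in vehicle tumors (-0.27, SE 0.17, adjusted p = 0.652, and -0.43 without MNF tumor 1), and Ccna2, cyclin A2, had 1076, 994 and 1132 in MNF tumors and 1240.1, 1215 and 1005 in vehicle tumors (-0.11, SE 0.13, adjusted p = 0.778). Both overlapped between groups. Ccnd1, cyclin D1, overlapped as well, at 19770.0, 16395 and 17976 in MNF tumors and 15314, 16137 and 19413 in vehicle tumors (0.09, SE 0.14, and -0.17 under quantile normalization). Of 37 DNA replication genes 28 had a negative change (median -0.06), and 1 was lower at an unadjusted p under 0.05, a share no higher than the 3.92% over all features. It was Fen1, the flap endonuclease, with 499.5, 478 and 512 in MNF tumors and 572, 674 and 611 in vehicle tumors (-0.32, SE 0.12). The mean log2 signal of the 37 genes was 9.65, 9.25 and 9.51 in MNF tumors and 9.49 to 9.61 in vehicle tumors. By this mean the groups overlapped, with MNF tumor 1 the highest and MNF tumor 2 the lowest. The list median lay between -0.17 and 0.04 under the 21 alternatives, and its sign changed in 1 of them. Of 16 DNA repair genes 11 were negative (median -0.13) and 2 were lower at an unadjusted p under 0.05 (3.92% over all features). These were H2ax, the histone variant marked at DNA breaks, with 4781, 4364 and 4784 in MNF tumors and 5784, 6777 and 6227 in vehicle tumors (-0.43, SE 0.12), and Xrcc5, the Ku80 subunit. Neither of the 2 overlapped between groups, and 4 of the 16 were lower without overlap (7.87% over all features). Among 22 cyclins, CDKs and E2F factors 12 changes were positive and 10 negative (median 0.00), against 7 and 15 (median -0.12) with Z values taken on the whole array, and the median changed sign in 13 of 21 alternatives.

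Of 20 immediate early genes tested 19 had a positive change (median 0.32), and at an unadjusted p under 0.05 7 passed as higher and 0 as lower, against 3.22% and 3.92% over all features. Atf3, a factor induced by stress and cyclic AMP, had 273, 339 and 283 in MNF tumors and 214, 191 and 181 in vehicle tumors (0.61, SE 0.14). Junb, an AP-1 subunit, had 7166, 5258 and 7843 in MNF tumors and 4560.2, 4895 and 4034 in vehicle tumors (0.57, SE 0.17). Both genes were without overlap, as were Maff, a small Maf factor (0.43, SE 0.15), and Zfp36, which destabilizes mRNAs of cytokines (0.45, SE 0.16, and 0.29 without MNF tumor 1). The list of cyclic AMP responsive genes, which shares Atf3, Junb, Fos, Jun and Dusp1 with it, had 10 of 14 positive (median 0.39), with 4 higher at an unadjusted p under 0.05 (3.22% over all features), and with no detection filter, which adds 5 genes not detected on all arrays, its median was 0.08. Cebpb, a leucine zipper factor, had 14273, 7272 and 8906 in MNF tumors and 5555, 5771 and 5910.0 in vehicle tumors (0.76, SE 0.22). MNF tumor 1 was the highest, and without it the change was 0.49. Gem, a small GTPase, overlapped, with 687, 947 and 786 in MNF tumors and 761, 542 and 455 in vehicle tumors (0.48, SE 0.20). The median of the immediate early genes lay between 0.23 and 0.36 under the 21 alternatives.

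Of the list of β-adrenergic, cannabinoid and G protein signaling, 11 of 24 named genes were tested, with 6 positive and 5 negative changes (median 0.03). Among the 11, 0 reached an unadjusted p under 0.05 (3.22% higher and 3.92% lower over all features). Prkaca, the catalytic subunit of protein kinase A, had 2297, 3780.4 and 3478 in MNF tumors and 4019.7, 4019.9 and 4286 in vehicle tumors (-0.40, SE 0.19), without overlap but with MNF tumor 1 far below, and -0.18 without it. Rgs2, a regulator of G protein signaling, had 375, 828 and 335 in MNF tumors and 273, 341 and 344 in vehicle tumors (0.57, SE 0.31), where MNF tumor 2 alone was high.

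Enzymes of cholesterol synthesis had mostly negative changes, 15 of 16 (median -0.22). An unadjusted p under 0.05 was reached by 5, all of them lower (3.92% over all features). Sqle, squalene epoxidase, had 2215, 2920.2 and 2153 in MNF tumors and 3698, 3090.2 and 3725 in vehicle tumors (-0.54, SE 0.16). Dhcr7, which makes the last step of the pathway, had 1061, 1641 and 1117 in MNF tumors and 1809.7, 1775 and 2157 in vehicle tumors (-0.61, SE 0.18), so that MNF tumor 2 was close to the vehicle range for both genes. Nsdhl, a sterol dehydrogenase, had 538, 522 and 542 in MNF tumors and 743, 754 and 656 in vehicle tumors (-0.42, SE 0.12), and Ebp, a sterol isomerase, had a change of -0.36 (SE 0.12). The groups did not overlap for any of these 4 enzymes. Stard4, a sterol carrier named after its value was seen, was the positive one (0.12). Under the 21 alternatives the median lay between -0.31 and -0.17. The CCAAT box stood in the promoter windows of 9 of the 12 tested members that had one (75%), against 39.1% of the windows of tested genes. The sterol element, another motif searched for in these windows, stood in 0 of the 12, against 1.13% of the windows of tested genes. With a share that low, 12 windows are too few for this count to show a lack of the element.

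Genes of the cytosolic ribosome had positive changes in 54 of 56 cases (median 0.28), 12 of them higher at an unadjusted p under 0.05 (3.22% over all features). This group lies at the bright end of the arrays and depended on the scaling: under quantile normalization 32 of 56 were positive, with a median of 0.04 and 2 higher at an unadjusted p under 0.05, and with neqc the median was 0.03. With Z values taken on the whole array the median was 0.46 and 26 were higher, and with the processed values 0.45 and 26. Rplp1, of the ribosomal stalk, had 32869.9, 19089.9 and 24017 in MNF tumors and 16741, 13979.7 and 13830.0 in vehicle tumors (0.74, SE 0.20, and 0.46 under quantile normalization). Rps15a had a change of 0.45 (SE 0.16) and one of -0.02 under quantile normalization. The elongation factors Eef2 (0.41, SE 0.12) and Eef1a1 (0.49, SE 0.16) were at 0.08 and 0.13 under quantile normalization. Mitochondrial ribosomal proteins, which have lower signals, were mostly negative, 43 of 55 (median -0.09), 6 of them lower at an unadjusted p under 0.05 (3.92% over all features), a count of 3 under quantile normalization and 2 with neqc. Mrps24 had 2912, 3413 and 3883 in MNF tumors and 4488, 4539.9 and 4218 in vehicle tumors (-0.39, SE 0.14), and Mrpl18 a change of -0.48 (SE 0.16). Their median was -0.04 under quantile normalization. Subunits of the respiratory chain and ATP synthase had 38 of 55 negative (median -0.04), but 35 of 55 positive (median 0.03) when the Z values were taken on the whole array or from the processed table. No direction is given for this group. Among its members were Ndufb6 and Ndufs8 of complex I at -0.32 each (SE 0.13 and 0.14).

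Stress and metabolic genes were mixed. Hspa5 (BiP), a chaperone that folds secretory proteins, had 44725, 40990.3 and 37786 in MNF tumors and 32380.5, 31954 and 31357 in vehicle tumors (0.36, SE 0.12), without overlap. It is among the brightest genes of the array, its deposited signals before normalization were 22298, 40573 and 33245 in MNF tumors and 50425, 39183 and 37111 in vehicle tumors, and its change was -0.01 under quantile normalization. Of 22 genes of endoplasmic reticulum stress 14 were positive (median 0.01). Ppp1r15a, a phosphatase subunit of the integrated stress response, had 777, 1002 and 1088 in MNF tumors and 794, 740.4 and 652 in vehicle tumors (0.38, SE 0.16). Heat shock and cytosolic chaperone genes were positive in 21 of 21 cases (median 0.17). At an unadjusted p under 0.05 only 1 of them was higher, Cct7 of the TRiC chaperonin (0.35, SE 0.12), against 3.22% over all features. Under quantile normalization 18 of the 21 were positive. Hspb1, the small heat shock protein, had 8053, 623 and 859.9 in MNF tumors and 1083, 252 and 225 in vehicle tumors (2.04, SE 0.93, and 0.90 without MNF tumor 1), with overlap. Of the oxidative stress list, 17 of 24 were positive (median 0.11). Sqstm1, an autophagy receptor, had 2756, 2258 and 2790.2 in MNF tumors and 2075, 1966 and 1963 in vehicle tumors (0.37, SE 0.13), and Keap1, the inhibitor of NRF2, had 375, 405 and 380.2 in MNF tumors and 592, 527 and 444 in vehicle tumors (-0.42, SE 0.14). Neither overlapped between groups.

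Of 15 glycolysis genes 10 were positive (median 0.21), with 4 on the higher and 1 on the lower side at an unadjusted p under 0.05 (3.22% and 3.92% over all features). Slc16a3, a lactate exporter, had 2891, 1794 and 1777 in MNF tumors and 1272, 1232 and 1648 in vehicle tumors (0.61, SE 0.21, and 0.38 without MNF tumor 1). Ldha, lactate dehydrogenase, and Pgk1, a kinase of the same pathway, had changes of 0.41 (SE 0.13) and 0.48 (SE 0.16), both bright genes that were at 0.10 and 0.19 under quantile normalization. Hypoxia response genes were positive in 11 of 12 cases (median 0.20) with 0 at an unadjusted p under 0.05 (3.22% higher and 3.92% lower over all features). Vegfa, the vascular growth factor, had 1022, 2049.5 and 2399.8 in MNF tumors and 909, 1495 and 1532 in vehicle tumors (0.42, SE 0.32, and 0.81 without MNF tumor 1), which overlapped.

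**Figure D4:**
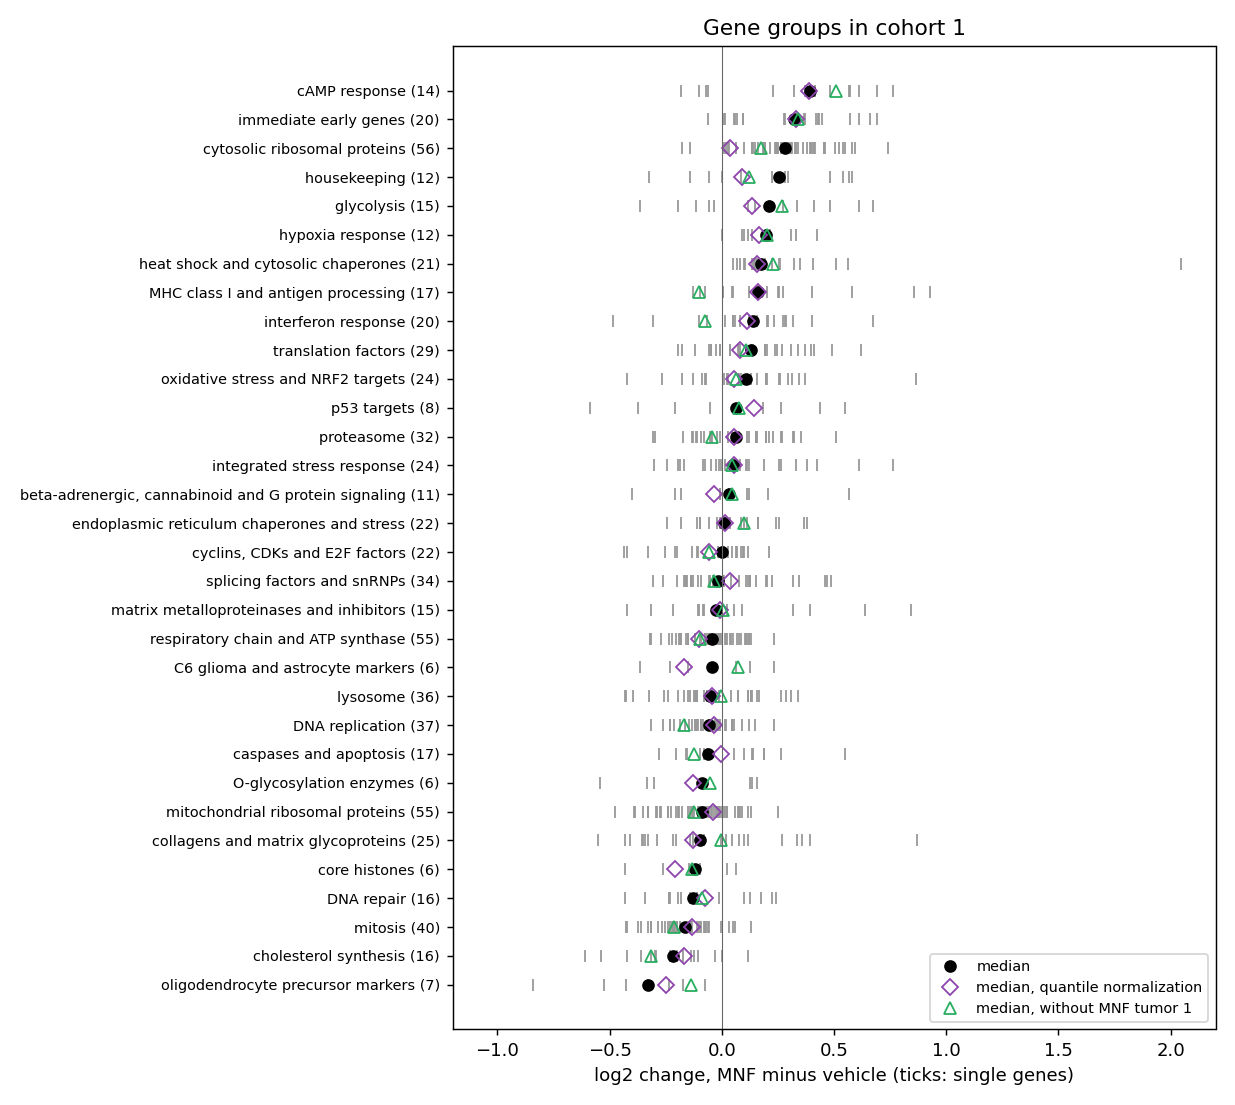
Log2 change with MNF in each gene group with at least 5 tested genes, the number tested in parentheses. Ticks are single genes, filled circles the medians, diamonds the medians under quantile normalization and triangles the medians without MNF tumor 1. The medians of immediate early and cyclic AMP genes stay above 0 and those of mitosis and cholesterol synthesis below 0 in all 3, while the ribosomal median is 0.28, against 0.04 under quantile normalization.

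RT1-A2, a class I molecule, had 7454, 1460.2 and 1432 in MNF tumors and 1418, 1245 and 1281 in vehicle tumors (0.93, SE 0.54, and 0.14 without MNF tumor 1). RT1-A1, another class I molecule, was also highest in MNF tumor 1 (0.85, SE 0.52, and 0.11 without MNF tumor 1). Of the 17 genes of the list 14 were positive (median 0.16), and without MNF tumor 1 it was 6, with a median of -0.10. Interferon genes gave 16 positive of 20 (median 0.14), and 8 of 20 without that tumor, with a median of -0.08. The same array carried the most muscle and keratinocyte transcript, and the part of these tissues in the result was not tested. B2m, the light chain of class I molecules, was also highest there, with 64919, 35542 and 32342 in MNF tumors and 26060.2, 31637 and 27102 in vehicle tumors (0.58, SE 0.24, with 0.22 under quantile normalization and 0.27 without MNF tumor 1). Class I probes of this family can bind transcripts of near-identical genes, so the single members are uncertain.

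Of 17 caspase and apoptosis genes 0 reached an unadjusted p under 0.05 (3.22% higher and 3.92% lower over all features), with 8 positive and 9 negative changes and a median of -0.06. The groups did not overlap for 3 of the 17, Bad (-0.21), Bak1 (-0.28) and Diablo (-0.16), all of which promote apoptosis and were lower with MNF (7.87% over all features), and these were named after their values were seen. Bax (0.55, SE 0.34) and Bid (0.26, SE 0.17) of the same list, which promote apoptosis as well, had positive changes, with overlap. The list thus gives no common direction for genes that promote apoptosis. Casp1, an inflammatory caspase, had 622, 428 and 466 in MNF tumors and 741, 496 and 398 in vehicle tumors (-0.08, SE 0.23, adjusted p = 0.919). Casp4 (Casp11), its relative, had 1163, 803 and 1178 in MNF tumors and 1633, 884 and 1047 in vehicle tumors (-0.15, SE 0.24), and Casp12 had 1031, 973 and 942 in MNF tumors and 1604, 969 and 743 in vehicle tumors (-0.10, SE 0.25). All 3 overlapped, with vehicle tumor 1 the highest, and all 3 had a positive change without it, at 0.10 to 0.21. Mmp14, a membrane-bound metalloproteinase, had 1924, 2381 and 1905 in MNF tumors and 2535, 2144 and 2523 in vehicle tumors (-0.22, SE 0.14). Mmp11 had 347, 237 and 235 in MNF tumors and 232, 256 and 269 in vehicle tumors (0.09, SE 0.17, and -0.10 without MNF tumor 1). Mmp3, stromelysin-1, had 3872, 3367 and 5516 in MNF tumors and 3606, 1501 and 2309 in vehicle tumors (0.84, SE 0.30). It was the 1 of 15 members of the metalloproteinase list at an unadjusted p under 0.05 (3.22% higher over all features). Without overlap and higher were 2 of the 15 (8.07% over all features), Timp3, an inhibitor of these enzymes (0.40, SE 0.20), and Mmp9, a gelatinase named after its value was seen (0.32, SE 0.15). Mmp9 was dim, with 242, 186 and 188 in MNF tumors and 152, 180 and 160 in vehicle tumors. It lies in the dimmest bin, where 75 features were higher and 2 lower without adjustment.

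Galnt2 and Galnt3, which start O-glycosylation, differed in spread: Galnt2 had 504, 458 and 479 in MNF tumors and 604, 627 and 901 in vehicle tumors (-0.54, SE 0.17), and Galnt3 had 1341, 837 and 1158 in MNF tumors and 1420.3, 1303 and 1403 in vehicle tumors (-0.33, SE 0.18), with overlap for Galnt3. Sox4, a factor of progenitor cells, overlapped widely, with 1123, 614 and 750.1 in MNF tumors and 1232, 666 and 1538 in vehicle tumors (-0.43, SE 0.32, and -0.68 without MNF tumor 1). Of 11 oligodendrocyte precursor markers named on the array, 7 were tested and 3 were detected on no array. All 7 tested had a negative change (median -0.33), with 1, Olig1, at an unadjusted p under 0.05 (3.92% lower over all features). Nkx2-2, another factor of that lineage, had 1057, 2324 and 1737 in MNF tumors and 2013, 2255 and 2794 in vehicle tumors (-0.52, SE 0.27). The myelin genes Cnp and Pmp22 were at -0.56 (SE 0.36) and -0.57 (SE 0.29). MNF tumor 1 was the lowest for Nkx2-2, Cnp and Pmp22, whose changes without it were -0.22, -0.16 and -0.24, and the list median without it was -0.14. For Olig1 the change without it was -0.84.

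The genes that varied most over the 6 tumors did so mainly through MNF tumor 1. Hspb1, Acta1, Hbb, Tnnc2, Fmod, RT1-S2, Fxyd3, Npy, Myl1 and Ptgr1 had the largest SD, and MNF tumor 1 held the highest signal of 8 of them, all but Hbb and Fmod. Fmod, fibromodulin of collagen matrix, had 319.7, 3953 and 1351 in MNF tumors and 1437, 1949 and 3313 in vehicle tumors (-0.81, SE 0.75). Hbb was highest in MNF tumor 3, with 17501, 6168 and 44992 in MNF tumors and 4025, 11021 and 2986 in vehicle tumors (1.73, SE 0.68). All 10 overlapped between the groups. Aqp1, a water channel, and Cfp, properdin of the complement system, were likewise highest in MNF tumor 1 but without overlap (0.85, SE 0.26, and 0.74, SE 0.36). Without that tumor their changes were 0.64 and 0.24. Zdhhc2, a palmitoyltransferase, was lowest there, with 1599.7, 3676 and 3502 in MNF tumors and 4019, 5427 and 5433 in vehicle tumors (-0.84, SE 0.30, and -0.46 without MNF tumor 1).

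The changes of cohort 1 were set beside those of the second cohort, which has its own 3 MNF and 3 vehicle tumors, in 1 model over 12 arrays and the 7620 features detected on all of them. The difference between the cohorts in the change with MNF passed an adjusted p under 0.05 for 0 features (0%), with a smallest adjusted p of 0.529, while 711 had an unadjusted p under 0.05. Some of the genes named above, chosen after their values were seen, had like values in both cohorts and others did not. Olig1 had -0.84 in cohort 1 and -0.66 in cohort 2, Cdkn3 -0.43 and -0.48, Ndc80 -0.36 and -0.51, and Hspa5 0.35 and 0.40. Cthrc1 had 1.35 in cohort 1 and -0.61 in cohort 2, Dusp3 -0.84 and 0.11, Add3 -0.89 and 0.34, Tmem50b -0.51 and 0.98, and Sqle -0.54 and 0.15. Atf3 had 0.62 and -0.28, and Cebpb 0.76 and -0.59. The unnamed probe 18977 had 1.68 in cohort 1 and 0.01 in cohort 2. Of these differences none passed the adjusted test, so the cohorts are not shown to differ for any of these genes.

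**Figure D5:**
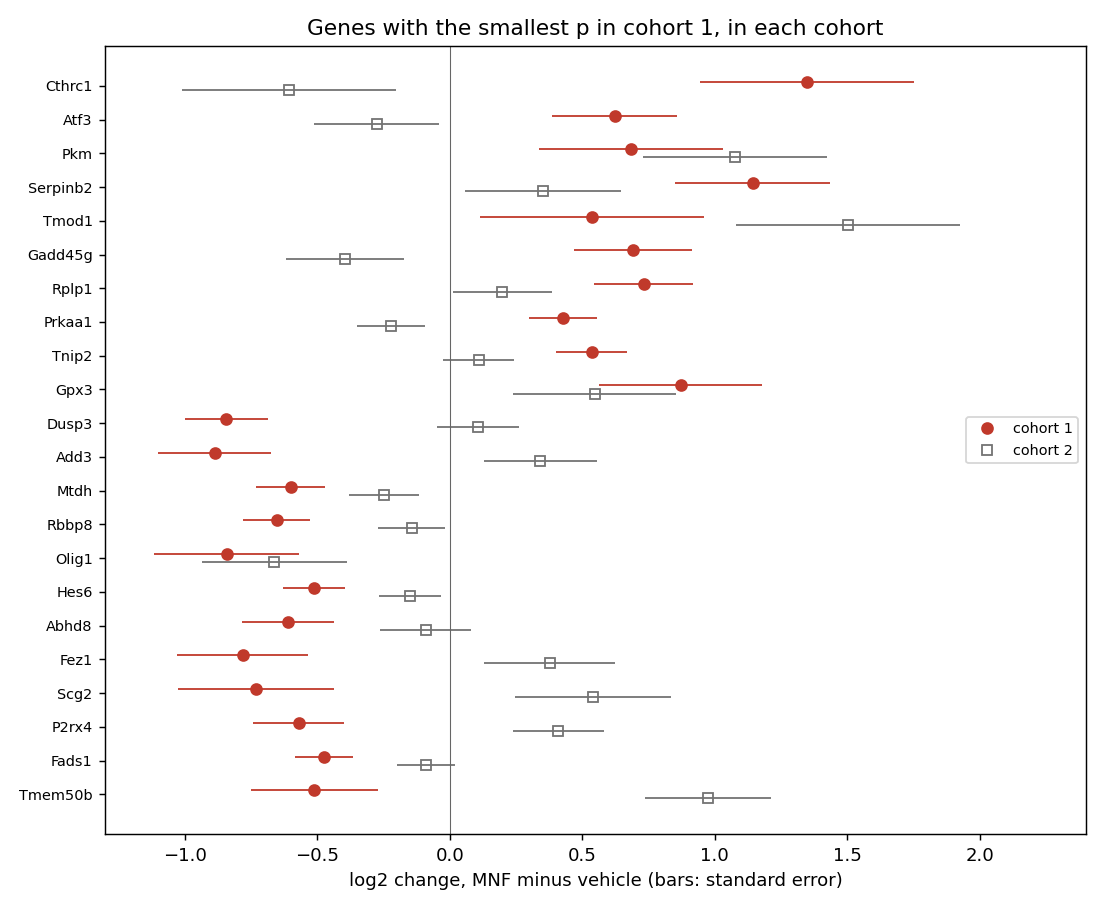
Log2 change with MNF, with its standard error, in cohort 1 (filled circles) and cohort 2 (open squares), for the named genes with the smallest p in cohort 1 that were detected on all 12 arrays. Genes were chosen by cohort 1, so its values are larger by choice. Values such as those of Olig1 and Gpx3 lie close in both cohorts, and those of Cthrc1 (1.35 and -0.61) and Add3 (-0.89 and 0.34) lie on opposite sides of 0.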

How the data were processed

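RNA of 6 tumors of cohort 1, 3 from MNF-treated and 3 from vehicle-treated mice, was read on Illumina RatRef-12 arrays, and the 6 arrays of cohort 2 entered only the comparison of cohorts. The authors exported non-normalized signal intensity and a detection p-value per probe, both deposited, and the submitters' processing notes name GenomeStudio 1.6.0. The authors also deposited a processed table, whose score per probe is a Z-normalized log value, and it was used only as an alternative. The scale of that table was found by setting it against the signals, with column medians of 0.174 to 0.360. Its values were used only as differences between groups.

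Probes with a detection p-value under 0.02 on all 6 arrays were kept. Each array's log2 signals were scaled to Z values over these probes and returned to log2 units with the mean SD and mean of the 6 arrays. For each gene the brightest probe was taken, and of 22517 probes 13259 had 1 symbol and 9258 none here. MNF and vehicle were compared with limma 3.58.1 in R 4.3.3 (lmFit, eBayes) with Benjamini-Hochberg adjustment over all features tested, and a call needed an adjusted p under 0.05. Single values were compared with an exact permutation test over the arrays. The fits were tested on simulated data. The z-test program of the study was not used.

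The alternatives were median centring, neqc, quantile normalization, Z-normalization on the whole array, the processed table, detection filters (by group, on all 12 arrays, none), an offset of 50, every probe, array weights, a model of 4 groups, the replicate number as a block, a muscle score as covariate, the Z ratio and false discovery thresholds of the study with an unadjusted p, and leaving out each tumor. Cyclic loess was chosen after seeing the data. Same-numbered MNF and vehicle tumors did not deviate together in all pairs (r = 0.38, -0.03 and -0.18), so the numbers were not taken to pair them.

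Genes named are those of the study's text and gene panel, the 12 with the smallest p on each side, the 8 with the largest change without overlap on each side, up to 4 of each gene list with the smallest p, those detected in 1 group only, and the 10 with the largest SD. Of the list members, those of the groups described are named. The samples, lists and tests were chosen with earlier results of these data known. Promoter windows come from RefSeq (GRCr8). The array annotation can be old, and probes of gene families may bind transcripts of related genes.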

Additional observations from a re-analysis of the deposited data

Results flagged for a closer look

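Probes outside the comparison, which were not detected on all 6 arrays, held a few signals of note. Of these probes, 7 were detected on all 3 MNF arrays and on no vehicle array, and 35 on all 3 vehicle arrays and on no MNF array. The named ones of the first kind were Bhmt, a methyltransferase of methionine synthesis, with a log2 difference of 0.42, Zpbp2 with 0.38, Npas2, a circadian factor, with 0.37 and Sp9 with 0.35. All 4 lie near the detection limit, and the differences were not tested. The 35 probes of the second kind had log2 differences of -0.22 to 0.13, and all but Pals1 (-0.22) overlapped between the groups. Every MNF array was dimmer than every vehicle array, and the part of this in the 2 counts was not tested. The summed signal of 5 keratinocyte markers was 20391 in MNF tumor 1, against 596 to 2290 in vehicle tumors. Ckm, the creatine kinase of muscle, had a signal of 1340.4 in MNF tumor 1, 132 and 398 in the other MNF tumors and 126 to 151 in vehicle tumors.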

How the results depend on the processing

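The number of features called at an adjusted p under 0.05, which was 1, was 0 with no filter and 0 in the 4-group model of 12 arrays, and 2 with the muscle score as a covariate. Under the looser rule of an absolute Z ratio of 1.5, an unadjusted p under 0.05 and an adjusted p under 0.3, the count was 2. With the replicate block 5 features had an adjusted p under 0.05: the unnamed probes 18977 and 5606, Cthrc1 (adjusted p = 0.00215, limma), Hspb1 (adjusted p = 0.00215, limma) and Serpinb2 (adjusted p = 0.0192, limma). The replicate numbers were not shown to pair the tumors. Leaving out 1 tumor gave 0 to 2 calls, with 0 without vehicle tumor 1 or vehicle tumor 2. Features higher at an unadjusted p under 0.05 numbered 427 with median centring, 596 with no filter, 499 with array weights and 120 to 588 when 1 tumor was left out, and features lower numbered 475 with Z-normalization on the whole array, 476 with the authors' processed values, 955 with no filter, 545 with array weights and 167 to 729 when 1 tumor was left out. The highest counts were without MNF tumor 2 and the lowest without vehicle tumor 3. Of such features 45.1% were higher and 54.9% lower, against 29.0% and 71.0% with Z-normalization on the whole array and 62.7% and 37.3% with median centring. The treatment share of variance was 22.7% to 43.8% with 1 tumor left out, the highest without MNF tumor 2. The count of features that differed between cohorts was 0 under every alternative run, and 0 to 0 when 1 tumor was left out.

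Over 114 named genes, 26 of 2386 alternative values had the opposite sign. Ccnd1 was at -0.17 with quantile normalization, -0.17 with neqc, -0.0415 with median centring and -0.11 with cyclic loess. Hspa5 was at -0.0077 with quantile normalization and -0.0079 with neqc, and Rps15a at -0.0154 and -0.0153. Mmp11 was at -0.0459 with Z-normalization on the whole array and with no filter, -0.0460 with the processed values, -0.0360 with array weights and -0.0246 with the muscle covariate. Casp4 was at 0.0269 with array weights, and with the muscle covariate Acta1 was at -0.43 and Fmod at 0.0579. When 1 tumor was left out, the changes ranged over -0.29 to 2.32 for Acta1, -0.28 to 0.17 for Casp1, -0.35 to 0.21 for Casp12, -0.34 to 0.10 for Casp4, -1.68 to 0.14 for Fmod, -0.15 to 1.44 for Fxyd3, -0.10 to 0.19 for Mmp11 and -0.0506 to 1.34 for Ptgr1. Medians of 32 gene groups changed sign in 73 of 672 values. The cause of these shifts was not tested.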
